A study of Mus musculus with 12 samples.

Results

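The genes described here are 10 genes of prostaglandin, thromboxane and leukotriene metabolism: Pla2g4a, Ptgs1, Ptgs2, Hpgds, Ptgds, Tbxas1, Alox5, Alox5ap, Ltc4s and Hpgd. They were taken by name from the table of counts after its Ensembl identifiers had been matched to mouse symbols, and all 10 were found among 47643 gene rows. All 10 also reached the minimum of 15 counts summed over the samples and so belonged to the 11103 genes tested. Ptgs2 reached it with 22 counts that all lay in 1 group, and Alox5 with 28 counts.

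Brain cells of 5 aged male p16-3MR mice on a C57BL/6 background were sorted by red fluorescence into an RFPneg sample (low signal) and an RFPpos sample (high signal), and the RNA of the 10 samples was counted as tags from transcript ends. The mice were 113, 115, 116, 116 and 116 weeks old and no treatment is given for them. Samples with the same number came from the same mouse, so each RFPpos sample was compared with the RFPneg sample of its own animal. Every animal in both groups carried the p16-3MR transgene, a fused reporter read from the p16 promoter. Its mRFP part gives the red signal used for sorting, and its other parts are a luciferase and a viral thymidine kinase. The gates kept viable cells (DAPI negative, Draq5 positive) and used no cell type antibody, so either sample could hold several brain cell types. The single-cell samples of the series were not analysed here. Counts assigned to genes ran from 177287 to 415834 per RFPneg library and from 222560 to 289713 per RFPpos library. Levels are given as CPM, with library sizes scaled by the trimmed mean of M values (TMM). The assay reads 1 tag near the end of each transcript, so values were not divided by gene length.

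Eicosanoids are short-lived lipid signals made from arachidonic acid, which phospholipases release from membranes. Cyclooxygenases turn it into an unstable prostaglandin intermediate that terminal synthases convert into prostaglandin D, prostaglandin E or thromboxane, while the lipoxygenase branch leads to leukotrienes. In the brain, cyclooxygenase-1, the hematopoietic prostaglandin D synthase and the lipoxygenase-activating protein are known as microglial products, whereas the lipocalin-type prostaglandin D synthase is made mainly by oligodendrocytes, the meninges and the choroid plexus.

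Ptgs1 and Hpgds were higher in RFPpos samples and Ptgs2 and Ptgds lower, and Tbxas1, Alox5ap and Hpgd were also higher but turned negative when libraries were scaled to microglial markers. Alox5, Ltc4s and Pla2g4a did not pass the test. These were 5 of 10 genes called higher and 2 of 10 given a call as lower at an adjusted p under 0.05 in edgeR's quasi-likelihood test with Benjamini-Hochberg adjustment. Ptgs2 passed the minimum count only through RFPneg libraries, so its call had to go that way and is not read as support. Over all genes tested, 5.20% were called higher and 8.20% lower. The median log2 fold change of the 10 genes was 0.76, also with Ptgs2 at the bound set by its counts, beside -0.10 over all genes tested. Without mouse 2 the counts were 3 called higher and 1 called lower, and without mouse 3 they were 4 and 1.

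The directions of several of these genes depend on what the libraries are scaled to. A list of 20 microglial markers took 2.68%, 1.82%, 1.93%, 1.72% and 2.51% of gene counts in RFPneg1 to RFPneg5 and 4.91%, 4.28%, 4.54%, 4.37% and 3.72% in RFPpos1 to RFPpos5. All 5 RFPpos libraries lay above all 5 RFPneg libraries. All 20 markers were called higher, the most abundant, the cathepsin gene Ctss, at a log2 fold change of 1.34 ± 0.18 (SE). In bulk samples, fewer cells of a type and less RNA per cell cannot be told apart. With each library scaled to this list instead of by TMM, the median over the tested genes moved by -1.13 log2 units, from -0.10 to -1.23. The median of the 10 genes then was -0.39. Under that scaling 1 of the 10 genes was called higher (Hpgds) and 3 lower (Ptgs2, Ptgds and Ltc4s), beside 0.144% and 48.7% of all genes tested.

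**Figure D1:**
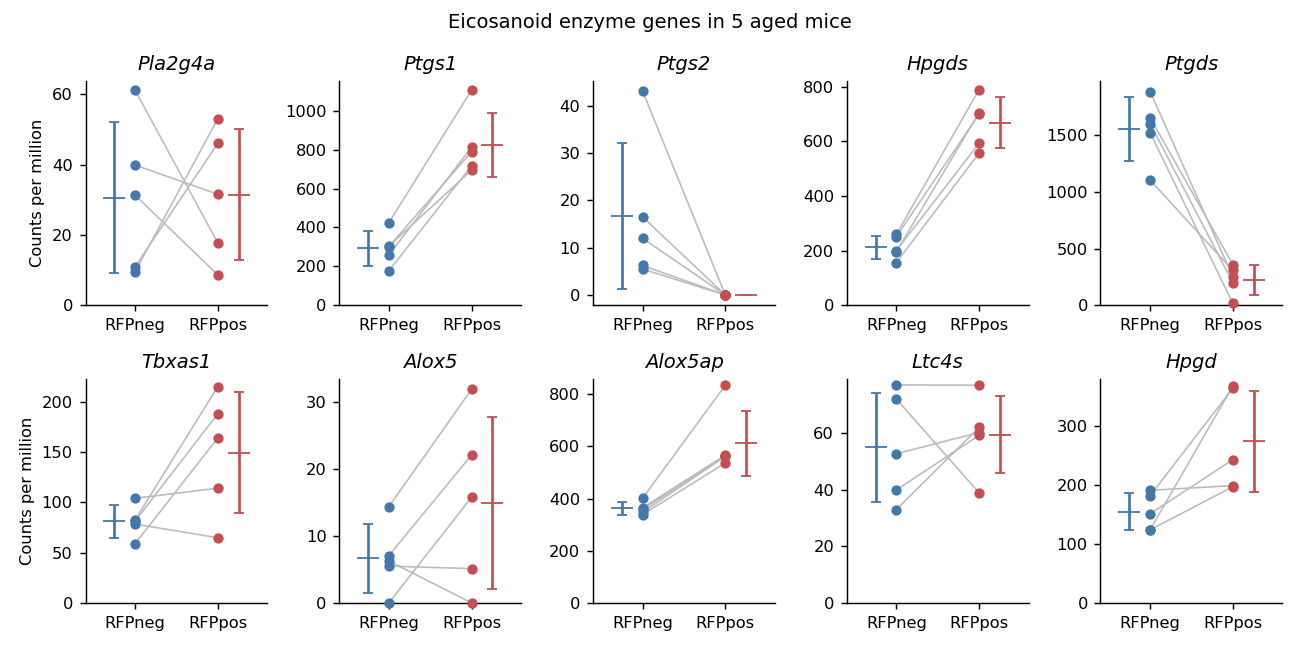
Levels in CPM (TMM-scaled) of the 10 genes in RFPneg and RFPpos samples of 5 mice; grey lines join samples of the same mouse, and bars beside the points give mean and SD (n = 5). The groups do not overlap for Ptgs1, Hpgds, Ptgds, Alox5ap and Hpgd. Nor do they for Ptgs2, which had 0 counts in RFPpos samples and passed the minimum only through RFPneg samples. The share of all genes tested without overlap is not given, so this describes the 10 genes only. With libraries scaled to microglial markers the log2 fold changes of Alox5ap and Hpgd turn negative and are not called.

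**Figure D2:**
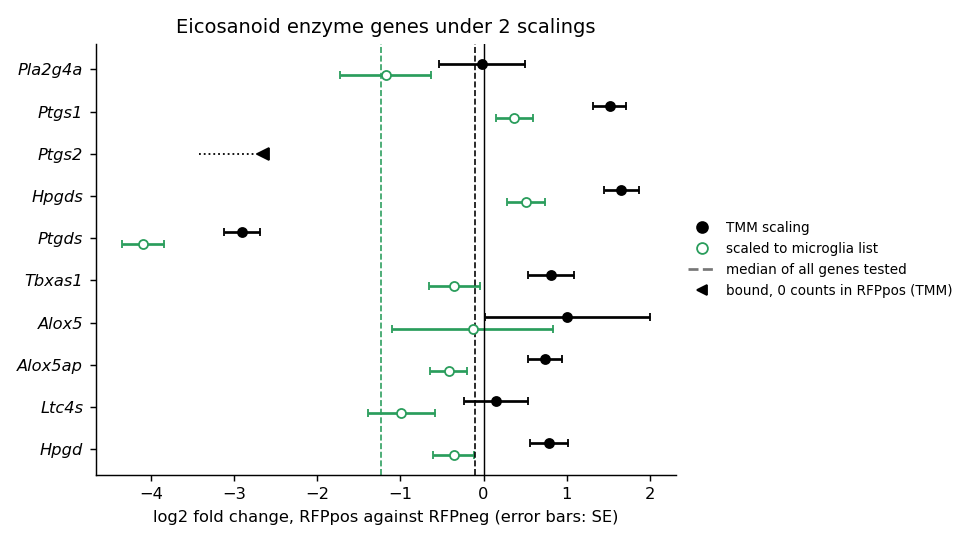
Log2 fold change of RFPpos against RFPneg with its SE for each gene, with TMM scaling (filled) and with libraries scaled to the 20 microglial markers (open); dashed lines mark the median of all genes tested, -0.10 and -1.23, and the triangle is the bound of -2.65 for Ptgs2, which had 0 counts in RFPpos samples. Ptgs1 and Hpgds stay above 0 and Ptgds below 0 under both scalings, whereas Tbxas1, Alox5, Alox5ap, Ltc4s and Hpgd turn from positive to negative with the microglial list.

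The sequences before the RefSeq start sites of Ptgs1, Hpgds, Ptgds and Ptgs2 are shown first. RefSeq windows (build GRCm38.p6) were used for 9 of the 10 genes, all but Alox5ap. The 250 bases before each start were searched on both strands for GAGGAAGT, a motif of PU.1 and related ETS factors, and for the core promoter motif TATAAA. They were also searched for CCAAT, a motif bound by NF-Y, and for GGGCGG, a motif bound by Sp1. Any match is in capitals. The windows lie at chr2:36230176-36230425 on the plus strand for Ptgs1, chr6:65144731-65144980 on the minus strand for Hpgds, chr2:25469750-25469999 on the minus strand for Ptgds and chr1:150099781-150100030 on the plus strand for Ptgs2. Each is read 5′ to 3′ along its gene. In the Ensembl positions of the counted genes, the Ptgds window lies wholly inside the gene (chr2:25466709-25470046) and most of the Hpgds window, with its match, lies inside the gene (chr6:65117293-65144908), so these 2 windows are not upstream of that annotation. The Tbxas1 window and the second Pla2g4a window also lie wholly inside their genes.
Ptgs1: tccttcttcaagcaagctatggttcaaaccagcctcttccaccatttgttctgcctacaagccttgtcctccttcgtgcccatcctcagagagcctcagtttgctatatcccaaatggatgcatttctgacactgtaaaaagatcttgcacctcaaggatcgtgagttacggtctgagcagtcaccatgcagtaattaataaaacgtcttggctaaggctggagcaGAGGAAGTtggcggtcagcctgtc
Hpgds: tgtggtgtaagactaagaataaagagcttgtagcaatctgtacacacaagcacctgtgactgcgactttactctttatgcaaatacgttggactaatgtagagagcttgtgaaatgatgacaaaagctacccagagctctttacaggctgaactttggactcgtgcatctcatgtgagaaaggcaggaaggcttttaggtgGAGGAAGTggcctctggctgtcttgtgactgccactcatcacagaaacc
Ptgds: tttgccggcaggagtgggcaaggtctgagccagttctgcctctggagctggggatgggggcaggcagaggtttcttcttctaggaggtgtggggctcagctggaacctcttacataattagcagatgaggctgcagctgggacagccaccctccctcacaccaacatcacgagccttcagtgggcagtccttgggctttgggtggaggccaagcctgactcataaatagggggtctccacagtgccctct
Ptgs2: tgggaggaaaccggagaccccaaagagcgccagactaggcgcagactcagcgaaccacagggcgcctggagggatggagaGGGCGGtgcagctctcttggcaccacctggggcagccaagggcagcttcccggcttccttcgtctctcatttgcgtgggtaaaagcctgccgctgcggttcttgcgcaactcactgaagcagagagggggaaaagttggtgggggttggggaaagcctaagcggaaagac

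GAGGAAGT occurred in the windows of Ptgs1, at bases 24 to 17 before the start, and of Hpgds, at bases 49 to 42, and in those of no other gene of the 9. Of 32851 promoter windows of the same length in the whole table, 802 held it (2.44%). GGGCGG was found for Ptgs2, 170 to 165 bases before the start, and for Alox5 and Hpgd, and occurs in 32.7% of all windows. TATAAA was found for Tbxas1, where matches on both strands overlap, and for the second of the 2 windows of Pla2g4a, against 12.4% of all windows. CCAAT, present in 33.8% of all windows, was found in none of the 9 genes, and the Ptgds window held none of the 4 motifs. These matches describe letters in the windows and say nothing on binding or cause.

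Release of arachidonic acid comes first in the pathway. Pla2g4a encodes the cytosolic phospholipase A2 that frees arachidonic acid from membrane phospholipids. Its level was 11.0, 9.58, 61.2, 39.9 and 31.3 CPM in RFPneg1 to RFPneg5 and 46.1, 53.1, 17.7, 31.6 and 8.64 CPM in RFPpos1 to RFPpos5. Both groups spread over the same range, and 2 of 5 mice were higher in RFPpos. With 88 counts in all, the log2 fold change was -0.02 ± 0.52 (SE; adjusted p = 0.987, edgeR's quasi-likelihood test with Benjamini-Hochberg adjustment), which at this depth does not show that the gene is unchanged.

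Ptgs1 encodes cyclooxygenase-1, the form that is made constitutively in many cells. Its level was 424, 302, 177, 259 and 304 CPM in RFPneg1 to RFPneg5 and 1107, 790, 717, 813 and 695 CPM in RFPpos1 to RFPpos5. Every RFPpos sample was above every RFPneg sample, and RFPpos1 was the highest of the 10. The log2 fold change was 1.52 ± 0.20 (SE), a 2.88-fold rise seen in 5 of 5 mice (adjusted p = 3.43e-11, edgeR's quasi-likelihood test with Benjamini-Hochberg adjustment). Relative to the microglial list it was 0.37 ± 0.22 and was not called (adjusted p = 0.142, same test).

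Ptgs2 encodes cyclooxygenase-2, the inducible form, which brain neurons also make. It had 1, 9, 7, 3 and 2 counts in RFPneg1 to RFPneg5 and 0 in each of the 5 RFPpos libraries. The RFPneg counts were few and uneven, with 16 of the 22 in mice 2 and 3. Against the 3 counts that a count of 0 allows over the summed RFPpos libraries, Ptgs2 was at least 6.29-fold lower in RFPpos, with no error allowed on the RFPneg counts. It was lower in 5 of 5 mice, but with 0 in every RFPpos library no mouse could have been higher. The gene entered the test only through RFPneg counts, so its adjusted p of 0.0130 (edgeR's quasi-likelihood test with Benjamini-Hochberg adjustment) is not read as support. Without mouse 3 the adjusted p was 0.0565, and without mouse 2 the gene fell below the minimum count and was not tested. DESeq2 gave an adjusted p of 0.0685.

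Within the cyclooxygenase pair, a share that no scaling enters, Ptgs2 made up 1.28%, 12.5%, 8.54%, 4.41% and 2.02% of the Ptgs1 and Ptgs2 counts in RFPneg1 to RFPneg5. In RFPpos samples it was 0 of 968 counts, which allows a share of up to 0.310%. Intervals and floors cover counting error only, and the floors only that of the group at 0. With 0 Ptgs2 counts in every RFPpos library, and a gene that passed the minimum only through RFPneg libraries, the direction was fixed in each mouse, so the share is given without a test.

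Several cell type lists were also lower in RFPpos libraries, and their part in the Ptgs2 counts was not tested. In these and the other lists, a marker at 0 in RFPpos libraries that reached the minimum did so only through RFPneg libraries and could only be called lower. A marker above 0 but under 15 counts in RFPpos libraries also needed RFPneg counts to reach it. Among endothelial markers these were Cdh5, Itm2a and Tie1, with 4, 11 and 2 RFPpos counts. Among the neutrophil markers called they were Retnlg, Ngp, Camp and Mmp8, with 7, 7, 6 and 6. Of the monocyte markers called they were Ccr2, Plac8 and Vcan (11, 1 and 10), and of the neuronal ones Snap25 and Stmn2 (8 and 9). Of 10 neutrophil markers 7 were tested and 7 called lower, 1 of them (Ltf) with 0 counts in RFPpos libraries. Their sum was 0.259%, 0.279%, 0.725%, 0.436% and 0.240% of gene counts in RFPneg1 to RFPneg5 and 0.00494%, 0.0124%, 0.0197%, 0% and 0% in RFPpos1 to RFPpos5. The most abundant was S100a8, with 2974 counts in RFPneg and 29 in RFPpos libraries, and Ltf, Mpo and Cxcr2 had 0 counts in RFPpos libraries. All 10 endothelial markers were called lower, with sums of 0.161%, 0.526%, 0.557%, 0.686% and 0.410% in RFPneg1 to RFPneg5 and 0.0112%, 0.0193%, 0.0265%, 0.0383% and 0.0268% in RFPpos1 to RFPpos5; the most abundant, Flt1, had 1795 and 42 counts and none was at 0. Of 8 monocyte markers 7 were called lower, led by H2-Aa (789 against 89 counts), with a sum of 0.114% ± 0.0124 in RFPneg and 0.0105% ± 0.00759 in RFPpos libraries (SD, n = 5) and Ly6c2 and Chil3, 2 of the 7, at 0 in RFPpos libraries. Of 10 neuronal markers, led by Meg3 (179 against 63 counts), 3 were called lower; their sum was 0.0402% ± 0.0106 and 0.0184% ± 0.00767 (SD, n = 5).

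The prostaglandin D synthase genes were called in opposite directions. Hpgds encodes the hematopoietic, glutathione-dependent enzyme. Its level was 259, 196, 200, 156 and 251 CPM in RFPneg1 to RFPneg5 and 789, 705, 593, 557 and 700 CPM in RFPpos1 to RFPpos5. The lowest RFPpos sample was above the highest RFPneg sample, and the within-mouse log2 differences lay close together, between 1.46 and 1.79. The log2 fold change was 1.66 ± 0.21 (SE), 3.16-fold, in 5 of 5 mice (adjusted p = 2.25e-12, edgeR's quasi-likelihood test with Benjamini-Hochberg adjustment). Relative to the microglial list it was 0.51 ± 0.23 (adjusted p = 0.0488, same test).

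Ptgds encodes the lipocalin-type enzyme, a secreted protein that is abundant in cerebrospinal fluid. Its level was 1524, 1886, 1604, 1656 and 1106 CPM in RFPneg1 to RFPneg5 and 15.4, 251, 199, 359 and 307 CPM in RFPpos1 to RFPpos5. All RFPpos samples were below all RFPneg samples, and RFPpos1, with 3 counts, was the lowest. The log2 fold change was -2.91 ± 0.22 (SE), 7.53-fold lower, in 5 of 5 mice (adjusted p = 1.20e-29, edgeR's quasi-likelihood test with Benjamini-Hochberg adjustment). Relative to the microglial list it was -4.10 ± 0.25.

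Hpgds made up 14.5%, 9.43%, 11.1%, 8.59% and 18.5% of the Hpgds and Ptgds counts in RFPneg1 to RFPneg5. In RFPpos1 to RFPpos5 it made up 98.1%, 73.7%, 74.9%, 60.8% and 69.5%. Every RFPpos sample was above every RFPneg sample. Tags of the genes may be captured unequally, so the share is compared between samples only. The mean share was 12.4% ± 4.07 in RFPneg and 75.4% ± 13.8 in RFPpos samples (SD, n = 5 mice; exact two-sided sign-flip permutation p = 0.0625, the smallest that 5 pairs with 32 assignments can give). This share and that of Ptgs2 were chosen after the data had been seen.

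**Figure D3:**
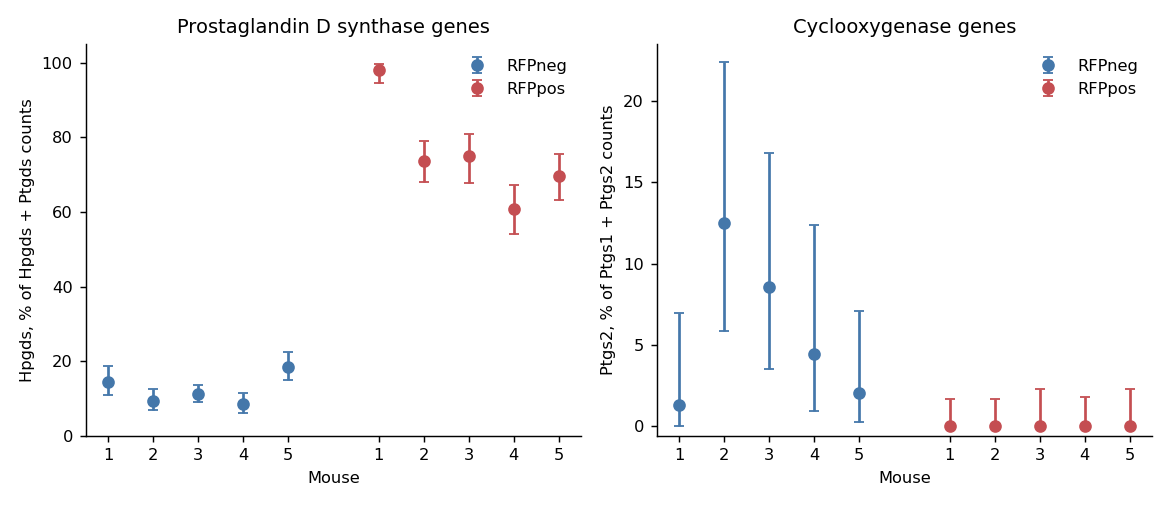
Share of Hpgds in the Hpgds and Ptgds counts (left) and of Ptgs2 in the Ptgs1 and Ptgs2 counts (right), in percent, for each mouse and group, with exact 95% binomial intervals of counting error. Hpgds shares lie between 8.59% and 18.5% in RFPneg and between 60.8% and 98.1% in RFPpos samples.

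Oligodendrocytes, choroid plexus and fibroblasts are known to make Ptgds, and their marker lists differed in how far they moved with it. All 10 oligodendrocyte markers were called lower in RFPpos samples and none was at 0. Of these, Mog, Cldn11, Ermn, Olig1 and Ugt8a, with 1, 7, 3, 14 and 2 RFPpos counts, needed RFPneg counts to reach the minimum. The sum of the 10 was 1.82%, 1.27%, 0.741%, 0.458% and 0.853% of gene counts in RFPneg1 to RFPneg5 and 0.0575%, 0.144%, 0.189%, 0.191% and 0.334% in RFPpos1 to RFPpos5. The groups did not overlap, and RFPpos1 was the lowest here as it was for Ptgds. RFPpos1 was likewise the lowest library for the fibroblast, astrocyte, endothelial, mural and monocyte lists, though not for the choroid plexus or neuronal list. Of 10 choroid plexus and ependymal markers 6 were tested and 1 was called lower, Ttr, the most abundant (2551 of the list's 2697 counts in RFPneg and 716 of 831 in RFPpos libraries). Aqp1 of the same list had 53 and 87 counts and was higher in RFPpos in 4 of 5 mice, without being called. The sum of this list was 0.522%, 0.313%, 0.0972%, 0.180% and 0.103% in RFPneg1 to RFPneg5 and 0.0350%, 0.0238%, 0.0516%, 0.172% and 0.0568% in RFPpos1 to RFPpos5, with Ccdc153, Tmem212 and Ak7 at 0 in RFPpos libraries. Of 10 fibroblast markers 4 of the 6 tested were called lower, led by Igf2 (138 against 26 counts), with Col3a1, Lum, Pdgfra (1 of the 4) and Col6a1 at 0 in RFPpos libraries. Their sum was 0.0293%, 0.0342%, 0.0303%, 0.0427% and 0.0177% in RFPneg1 to RFPneg5 and 0.000449%, 0.00725%, 0.0148%, 0.0184% and 0.00288% in RFPpos1 to RFPpos5.

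Per 1000 counts of the oligodendrocyte list, Ptgds had 86.0, 158, 221, 364 and 138 counts in RFPneg1 to RFPneg5 and 23.4, 170, 107, 190 and 87.4 in RFPpos1 to RFPpos5. These ranges overlap, and mouse 2 was higher in RFPpos. The means were 194 ± 107 and 115 ± 66.8 (SD, n = 5 mice; exact two-sided sign-flip permutation p = 0.125, adjusted p = 0.156 over the 10 ratios of this kind). Per 1000 counts of the choroid plexus list the values were 299, 643, 1686, 928 and 1146 in RFPneg1 to RFPneg5 and 38.5, 1029, 391, 211 and 514 in RFPpos1 to RFPpos5, lower in 4 of 5 mice, with RFPpos2 well above the other RFPpos samples. Per 1000 fibroblast list counts they were 5327, 5881, 5405, 3915 and 6660 in RFPneg1 to RFPneg5 and 3000, 3381, 1364, 1978 and 10143 in RFPpos1 to RFPpos5, lower in 4 of 5 mice, but RFPpos1 and RFPpos5 rest on 1 and 7 list counts. Both ratios had an exact permutation p of 0.125. Per 1000 astrocyte list counts the means were 339 ± 69.1 and 50.8 ± 27.1, and the groups did not overlap (exact permutation p = 0.0625, adjusted p = 0.125). The part of these cell types in the fall of Ptgds was not tested further. The ratios to marker lists were chosen after the data had been seen.

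Tbxas1 encodes thromboxane synthase. Its level was 82.5, 81.4, 58.9, 104 and 78.3 CPM in RFPneg1 to RFPneg5 and 215, 188, 164, 114 and 64.8 CPM in RFPpos1 to RFPpos5. The groups overlapped, because RFPpos5 lay below 4 of the 5 RFPneg samples. The log2 fold change was 0.81 ± 0.28 (SE), with 4 of 5 mice higher, but -0.35 ± 0.31 relative to the microglial list (adjusted p = 0.0377 and 0.331, edgeR's quasi-likelihood test with Benjamini-Hochberg adjustment). The call was lost without mouse 1, 2 or 3 (adjusted p = 0.196, 0.234 and 0.312, same test) and under DESeq2 (adjusted p = 0.327).

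Alox5ap encodes the 5-lipoxygenase-activating protein, a membrane partner that presents arachidonic acid to the enzyme. Its level was 402, 359, 365, 339 and 348 CPM in RFPneg1 to RFPneg5 and 835, 563, 567, 537 and 562 CPM in RFPpos1 to RFPpos5. The RFPneg samples lay in a narrow band, the RFPpos samples all lay above it, and RFPpos1 stood apart at the top. The log2 fold change was 0.74 ± 0.20 (SE), in 5 of 5 mice, and turned to -0.42 ± 0.22 relative to the microglial list (adjusted p = 0.00369 and 0.103, edgeR's quasi-likelihood test with Benjamini-Hochberg adjustment).

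Alox5 encodes 5-lipoxygenase itself. It had 1, 3, 3, 0 and 2 counts in RFPneg1 to RFPneg5 and 1, 9, 5, 4 and 0 in RFPpos1 to RFPpos5. Both groups held a library at 0, and 28 counts leave the log2 fold change at 1.01 ± 0.99 (SE), or -0.13 ± 0.97 relative to the microglial list (adjusted p = 0.631 and 0.915, edgeR's quasi-likelihood test with Benjamini-Hochberg adjustment).

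Ltc4s encodes leukotriene C4 synthase, which joins glutathione to the leukotriene intermediate. Its level was 77.0, 52.7, 33.0, 39.9 and 72.0 CPM in RFPneg1 to RFPneg5 and 76.9, 60.2, 62.0, 59.2 and 38.9 CPM in RFPpos1 to RFPpos5. The groups overlapped throughout, and the log2 fold change was 0.15 ± 0.38 (SE), but -0.99 ± 0.40 relative to the microglial list (adjusted p = 0.889 and 0.0308, edgeR's quasi-likelihood test with Benjamini-Hochberg adjustment). The call as lower under that scaling stands beside a median of -1.23 over all genes tested. Without mouse 3 the TMM value was -0.07. Ltc4s overlaps the antisense gene Gm26542, which had 4 counts in all. Genes on the opposite strand of Ptgs1, Tbxas1 and Alox5ap (Gm43621, Gm42962 and Gm19719) had 0 counts.

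Hpgd encodes 15-hydroxyprostaglandin dehydrogenase, which begins the breakdown of prostaglandins. Its level was 182, 124, 151, 124 and 191 CPM in RFPneg1 to RFPneg5 and 364, 368, 243, 197 and 199 CPM in RFPpos1 to RFPpos5. Mice 1 and 2 gave the highest RFPpos values, and the RFPpos values of mice 4 and 5 lay just above the highest RFPneg value. The log2 fold change was 0.79 ± 0.23 (SE), in 5 of 5 mice, and turned to -0.36 ± 0.25 relative to the microglial list (adjusted p = 0.00887 and 0.225, edgeR's quasi-likelihood test with Benjamini-Hochberg adjustment). Without mouse 2 it was 0.57 (adjusted p = 0.192, same test), and DESeq2 gave an adjusted p of 0.139.

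Ratios to the microglial list were taken within each sample. With libraries scaled to that list, its own genes ranged from -0.42 (Tyrobp) to 0.60 log2 units (Fcrls). Per 1000 counts of that list, Hpgds had 9.88, 11.5, 10.6, 9.14 and 10.6 counts in RFPneg1 to RFPneg5 and 14.1, 16.0, 13.2, 12.9 and 18.0 in RFPpos1 to RFPpos5. Ltc4s had 2.94, 3.08, 1.74, 2.34 and 3.06 in RFPneg1 to RFPneg5 and 1.37, 1.37, 1.38, 1.37 and 0.997 in RFPpos1 to RFPpos5. For both genes the groups did not overlap, with Hpgds higher and Ltc4s lower in every mouse. Ptgs1 had 14.3 ± 3.24 in RFPneg and 18.1 ± 1.40 in RFPpos samples, higher in 5 of 5 mice, and Alox5ap 18.1 ± 2.82 and 13.4 ± 1.14, lower in 5 of 5 (SD, n = 5). Each of these 4 ratios reached the smallest exact permutation p of 0.0625 (adjusted p = 0.125 over 10 ratios). Tbxas1 (4.09 ± 1.31 and 3.22 ± 1.05) and Hpgd (7.51 ± 0.505 and 6.00 ± 1.51) differed in 3 and 4 mice in the direction of lower RFPpos values, with exact permutation p = 0.4375 and 0.1875.

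Differences between pairs of genes within a mouse, which also need no choice of scaling beyond the prior count of 2, were compared for the 6 genes with at least 200 counts (15 pairs, chosen after the data had been seen). Hpgds exceeded Alox5ap by 0.90 ± 0.26 log2 units in its RFPpos minus RFPneg difference, and Ptgs1 exceeded Alox5ap by 0.78 ± 0.41, in 5 of 5 mice each (SD, n = 5; exact permutation p = 0.0625, adjusted p = 0.0938 over 15 pairs). Hpgds also exceeded Hpgd by 0.86 ± 0.43 and Tbxas1 by 0.89 ± 0.74, and Ptgs1 exceeded Tbxas1 by 0.76 ± 0.64, with the same counts of mice and the same p. Ptgs1 exceeded Hpgd by 0.73 ± 0.59, in 4 of 5 mice (exact permutation p = 0.125, adjusted p = 0.170). Ptgs1 and Hpgds differed by -0.13 ± 0.34 (exact permutation p = 0.4375). Tbxas1, Alox5ap and Hpgd differed from each other by 0.04 log2 units or less on average, with SDs of 0.53 to 0.70. With 5 pairs no such comparison can pass 0.05.

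The genes whose within-mouse differences were most like those of each gene were taken from 2175 genes with at least 200 counts, by the root mean square (RMS) difference over 5 mice in log2 units. For Ptgs1 they were the Fc receptor gene Fcgr3 (RMS 0.19), the complement receptor gene C3ar1 (0.23) and Fam102b (0.24). For Hpgds they were Apbb1ip (0.19), the transcription factor gene Mef2a (0.19) and Fcgr3 (0.20). For Alox5ap they were Capza2 (0.16), Adgrg1 (0.19) and Grb2 (0.20). For Hpgd the nearest were Acox3 (0.14), the microglial receptor gene Gpr34 (0.15) and Dusp6 (0.19), and for Tbxas1 they were Fgd2 (0.22), the innate receptor gene Tlr2 (0.24) and Pdia6 (0.28). Genes near Ptgds were farther off, among them the chaperone gene Cryab (0.68) and the carbonic anhydrase gene Car2 (0.97). Gpr34 is also on the microglial list.

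A wider list of 64 genes of the same pathway was read beside the 10. Of these, 15 had 0 counts in all samples and 23 reached the minimum of 15 counts. 4 were called higher and 3 lower in edgeR's quasi-likelihood test with Benjamini-Hochberg adjustment, beside 5.20% and 8.20% of all genes tested. The median log2 fold change of the 23 was 0.07 against -0.10 over all genes tested. Scaled to the microglial list, 0 were called higher and 10 lower, beside 0.144% and 48.7% of all genes tested, with a median of -1.11 against -1.23. Gpr17, 1 of the 3 called lower, passed the minimum only through RFPneg libraries, so its call had to go that way and is not read as support. Abcc4, also of the 3, had 10 RFPpos counts and reached the minimum only with its 103 RFPneg counts.

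Among lipases that release arachidonic acid or its precursors, Pla2g15, the lysosomal phospholipase A2, was 99.0, 86.2, 87.2, 55.9 and 90.8 CPM in RFPneg1 to RFPneg5 and 246, 213, 235, 174 and 225 CPM in RFPpos1 to RFPpos5. It was higher in every mouse without overlap, at a log2 fold change of 1.39 ± 0.26 (SE; adjusted p = 4.25e-06, edgeR's quasi-likelihood test with Benjamini-Hochberg adjustment). The diacylglycerol lipase gene Daglb, whose product helps make an arachidonate-holding endocannabinoid, rose by 1.37 ± 0.28 in 4 of 5 mice (adjusted p = 4.01e-05, same test). Its sister gene Dagla had 1.14 ± 0.45 and was called only without mouse 5 (adjusted p = 0.0811 with all mice and 0.0246 without it, same test). Pla2g16, a phospholipase and acyltransferase, was 280 ± 72.8 CPM in RFPneg and 128 ± 55.9 CPM in RFPpos samples (SD, n = 5), at a log2 difference of -1.12 ± 0.24 (adjusted p = 0.000117, same test) in 5 of 5 mice. Relative to the microglial list Pla2g15 and Daglb were at 0.25 and 0.23 and not called, and Pla2g16 was at -2.29. Mgll, the monoacylglycerol lipase that supplies much arachidonic acid in brain, and Pla2g7, which breaks down platelet-activating factor, were at 0.10 ± 0.24 and 0.07 ± 0.21 and not called. With the microglial list they turned to -1.05 and -1.11 and were called lower (adjusted p = 0.000320 and 2.43e-05, same test). These calls stand beside a median of -1.23 and 48.7% called lower over all genes tested. Of the genes just named, Pla2g7 spanned the widest CPM range among RFPpos samples, from 76.9 CPM in RFPpos1 to 903 CPM in RFPpos3.

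Downstream of the cyclooxygenases and lipoxygenase, 2 further genes with at least 50 counts were called. Abcc4, an exporter of prostaglandins, was 16.5, 47.9, 68.3, 140 and 81.4 CPM in RFPneg1 to RFPneg5 and 10.2, 10.6, 17.7, 3.95 and 0 CPM in RFPpos1 to RFPpos5. It was lower in all 5 mice although RFPneg1 lay among the RFPpos values, at a log2 difference of -2.92 ± 0.55 (SE; adjusted p = 6.97e-06, edgeR's quasi-likelihood test with Benjamini-Hochberg adjustment), and -4.08 relative to the microglial list. Cotl1, a coactosin-like protein that binds 5-lipoxygenase and actin, was 248, 192, 191, 263 and 207 CPM in RFPneg1 to RFPneg5 and 451, 453, 478, 482 and 445 CPM in RFPpos1 to RFPpos5. The RFPpos samples lay in a tight band above all RFPneg samples, at a log2 difference of 1.08 ± 0.21 (adjusted p = 1.36e-05, same test), which turned to -0.07 with the microglial list. Genes with at least 50 counts that were not called were Ptges3 (0.15 ± 0.41), a cochaperone with prostaglandin E synthase activity, Cbr1 (-0.22 ± 0.68), a carbonyl reductase, and Lta4h (-0.54 ± 0.53), which makes leukotriene B4. Ptgr2 (-0.08 ± 0.49), a prostaglandin reductase, Ephx1 (-1.36 ± 0.67), an epoxide hydrolase, and Abcc1 (0.42 ± 0.50), an exporter of leukotriene C4, were not called either. With the microglial list Ptges3 turned to -0.98 and was called lower (adjusted p = 0.0451, same test), as were Lta4h (-1.65, 0.00708), Ptgr2 (-1.23, 0.0343) and Ephx1 (-2.54, 0.000629), while Abcc1 turned to -0.69 and was not called. Over all genes tested the median was then -1.23 and 48.7% were called lower.

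Of the receptors, Cysltr1, a receptor for cysteinyl leukotrienes, was 77.0, 19.2, 28.3, 43.9 and 50.1 CPM in RFPneg1 to RFPneg5 and 108, 67.3, 48.7, 71.0 and 164 CPM in RFPpos1 to RFPpos5. The groups overlapped but each mouse was higher in RFPpos. Its log2 fold change was 1.07 ± 0.36 (SE), but -0.05 ± 0.39 relative to the microglial list (adjusted p = 0.0304 and 0.927, edgeR's quasi-likelihood test with Benjamini-Hochberg adjustment). Without mouse 2, 3, 4 or 5 the adjusted p was 0.143, 0.0628, 0.0508 and 0.192 (same test). The call was also lost with library size alone (0.0695), edgeR's own low-count filter (0.0502), no filter (0.0668), thinning (0.0830) and DESeq2 (0.214). Gpr17, a receptor of immature oligodendrocytes that has been linked to cysteinyl leukotrienes, had 5, 5, 4, 3 and 6 counts in RFPneg1 to RFPneg5 and 0 in all RFPpos libraries. This made it at least 6.58-fold lower against the 3 counts that a count of 0 allows, with no error allowed on the RFPneg counts. The 9 prostanoid receptor genes were near the limit of detection: 4 had 0 counts, and Ptger4, the only gene of them tested, had 10 counts in RFPneg and 11 in RFPpos libraries.

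**Figure D4:**
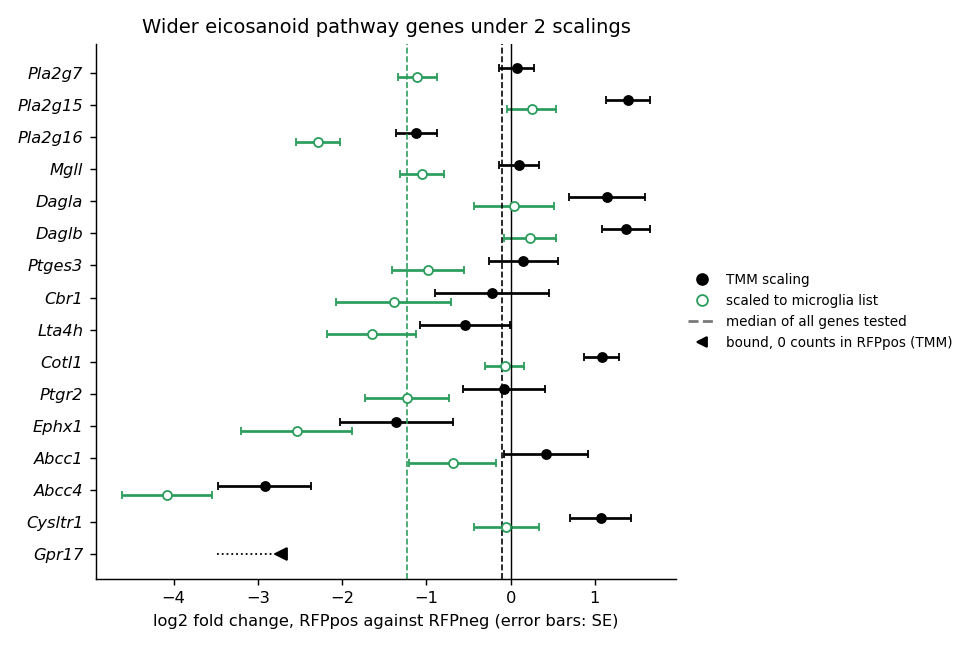
Log2 fold change of RFPpos against RFPneg with its SE for the 16 wider pathway genes that were called or had at least 50 counts, with TMM scaling (filled) and with libraries scaled to the 20 microglial markers (open); dashed lines are the medians of all genes tested and the triangle is the bound of -2.72 for Gpr17. Abcc4 and Pla2g16 lie below 0 under both scalings, Pla2g15 and Daglb above 0 under both, and Cotl1 and Cysltr1 turn from above 0 to below it.

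The remaining marker lists bear on which cells the libraries hold. Of 10 markers of CNS-associated macrophages, cells that share many genes with microglia, 8 were tested and 0 called in edgeR's quasi-likelihood test, and the most abundant was Mrc1 (72 counts in RFPneg and 99 in RFPpos libraries). Their sum was 0.0220% ± 0.00225 of gene counts in RFPneg and 0.0236% ± 0.00631 in RFPpos libraries (SD, n = 5). The genes of this list did not go one way. Stab1 (63 and 80 counts) was higher in RFPpos in 5 of 5 mice, and Mrc1 and Cd163 (9 and 24) in 4 of 5. F13a1 (57 and 20 counts) and Ms4a7 (42 and 21) were lower in RFPpos in 5 of 5 mice. With libraries scaled to the microglial list these last were called lower (adjusted p = 4.71e-05 and 0.00418, edgeR's quasi-likelihood test with Benjamini-Hochberg adjustment), beside 48.7% of all genes tested. Platelet markers, of interest because platelets hold much Ptgs1 and Tbxas1, summed to 0.00554% ± 0.00239 and 0.00647% ± 0.00329; Pf4 was the most abundant (49 and 57 counts). Gp1ba and Gp6 had 0 counts in every library, and Ppbp, Itga2b and Treml1, with 2 counts or fewer in RFPneg libraries, had 0 in RFPpos libraries. Of 10 mast cell and basophil markers, cells that express Hpgds and Ltc4s, 6 had 0 counts in every library and 2 more in RFPpos libraries, and the list held 33 counts in RFPneg and 5 in RFPpos libraries, led by Hdc (19 and 2). Lymphocyte markers (2 of 4 tested called lower, 7 of 10 at 0 in RFPpos libraries) summed to 166 and 12 counts, and both called genes, Trbc2 (53 and 0) and Nkg7 (39 and 0), passed the minimum only through RFPneg libraries. Mural markers (7 of 7 tested called lower, 6 of 10 at 0) summed to 552 and 82, with Vtn at 151 and 60. Of the 7, Kcnj8, Abcc9 and Cspg4 had 0 RFPpos counts and passed only through RFPneg libraries. Pdgfrb, Rgs5 and Acta2, with 9, 12 and 1 RFPpos counts, also needed RFPneg counts to pass. Of 10 astrocyte markers 4 were called lower, led by Slc1a2 (1664 and 961 counts), while Slc1a3 (1035 and 1196 counts) and Gfap (16 and 25) had more counts in RFPpos libraries without being called. The sum of the list, 0.482% ± 0.0840 and 0.408% ± 0.205 (SD, n = 5), overlapped between groups. The microglial, astrocyte, oligodendrocyte and neuronal lists had counts in every library, so the libraries carry brain markers in both groups.

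**Figure D5:**
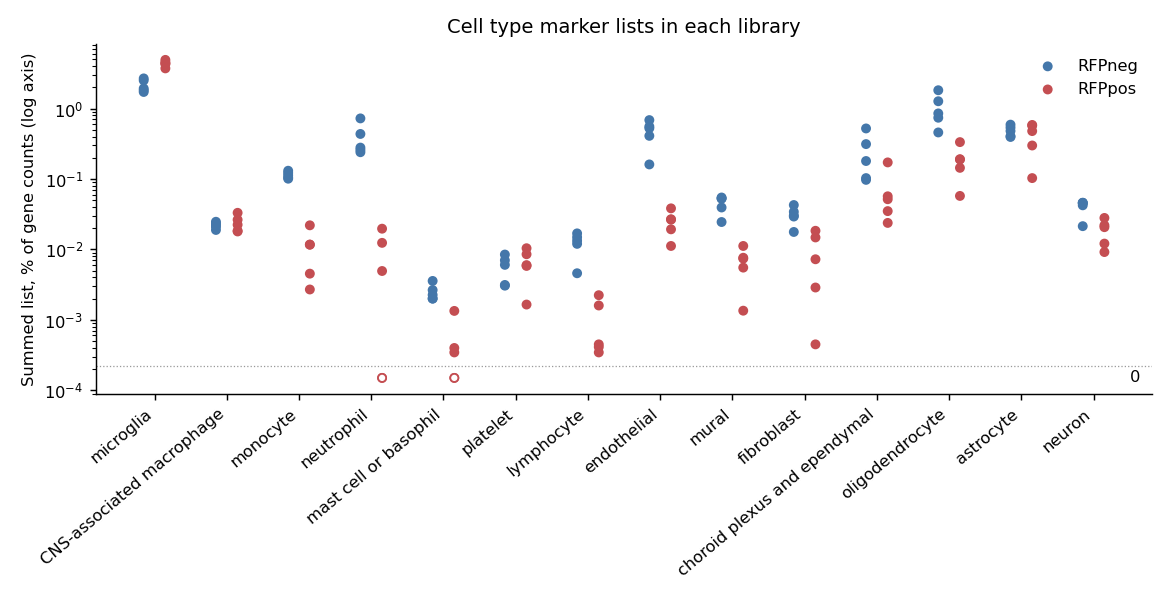
Summed counts of each marker list as a percent of gene counts in each library, on a log axis with libraries at 0 drawn as open points below the dotted line. The microglial list is higher in all RFPpos libraries, the oligodendrocyte, endothelial, mural, neutrophil, monocyte, lymphocyte and mast cell lists are lower in all of them, and the macrophage, platelet, astrocyte, neuron, choroid plexus and fibroblast lists overlap between the groups.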

How the data were processed

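RNA of sorted brain cells was turned into QuantSeq FWD libraries, and the authors counted tags per Ensembl gene with the Lexogen QuantSeq FWD UMI pipeline on the BlueBee platform; the deposited values are raw counts. The submitters' processing notes name mm10, with no role given; that the bulk counts use it is not stated, and the aligner is not given in the sources used here. Rows that name no gene were left out; tags with no feature made up 32.1% to 37.2% of all tags in RFPneg and 38.4% to 48.6% in RFPpos libraries, higher in RFPpos in all 5 mice, which cannot be told apart from the comparison. Identifiers were matched to symbols for 47224 of 47643 rows, and 0 columns of values lacked a sample.

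Genes with 15 counts or more over the 10 samples were tested with edgeR 4.0.16 in R 4.3.3 (TMM scaling, glmQLFit and glmQLFTest with the mouse as a block, Benjamini-Hochberg adjustment over all 11103 genes). DESeq2 1.42.0 and limma 3.58.1 served as alternatives, beside other scalings, filters, thinning and leaving out each mouse. The steps were tested on simulated data. The pairing comes from the labels, which give both samples of a number the same mouse; deviations of the paired samples from their group means correlated at 0.22, -0.04, 0.15, -0.01 and 0.01 over 4210 genes. Libraries of a group differed by more than sampling noise. Named were all 10 genes, wider pathway genes that were called or had 50 counts, up to 3 genes nearest to each gene with 200 counts, and the most abundant gene of most marker lists. The genes and lists were chosen with earlier results of these data known. Shares and ratios were compared with exact permutation tests over mice. Figures were drawn with matplotlib.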

Additional observations from a re-analysis of the deposited data

Results flagged for a closer look

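Both results that stood out among the samples of a group came from the same library. Ptgs1 was 1107 CPM in RFPpos1 against 695 to 813 CPM in the other RFPpos samples, and Alox5ap was 835 CPM in RFPpos1 against 537 to 567 CPM. In each case the gap to the nearest sample was a larger part of the group's range than Dixon's 95% limit for 5 samples allows. Among the 19 groups of values compared in this way, chance alone flags about 1 in 20. RFPpos1 also had the highest share of microglial markers (4.91%) and the lowest of oligodendrocyte markers (0.0575%). It was the lowest for fibroblast, astrocyte, endothelial, mural and monocyte markers too. Whether these shares account for its values was not tested. Without mouse 1 the log2 fold changes were 1.54 for Ptgs1 and 0.64 for Alox5ap.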

How the results depend on the processing

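Hpgds kept its direction and its call under every alternative, and Ptgds did too. Ptgs1 kept its direction and lost its call only with the microglial list. In sum 1488 genes were called (577 higher, 911 lower). Scaled to the microglial list, 5423 were called, 16 higher and 5407 lower; of the 10 genes 1 was higher, and of the wider list 0 were higher and 10 lower. That scaling also turned Tbxas1 (-0.35), Alox5 (-0.13), Alox5ap (-0.42), Ltc4s (-0.99), Hpgd (-0.36), Pla2g7 (-1.11), Mgll (-1.05), Ptges3 (-0.98), Cotl1 (-0.07), Abcc1 (-0.69) and Cysltr1 (-0.05) negative, by construction, since the list itself is higher in RFPpos libraries. With edgeR's own low-count filter 916 genes were called (489 lower), with 1 of the 10 genes and 1 wider gene lower, because Ptgs2, Alox5, Pla2g4a, Abcc4 and Gpr17 were then not tested. DESeq2 called 865 (279 higher, 586 lower), with 3 of the 10 genes higher and 1 lower. Requiring an absolute log2 fold change above 1 left 376 genes higher, among them 2 of the 10. Tbxas1 lost its call with median-of-ratios factors, library size alone, edgeR's filter, no filter and DESeq2. Pla2g7 turned to -0.01 with median-of-ratios factors, -0.03 with library size alone, -0.04 with edgeR's filter, -0.05 with DESeq2 and -0.11 after thinning. Mgll turned to -0.01 with the filter and -0.06 after thinning, and thinning gave Pla2g4a 0.45 and Ptgr2 0.13. None of these was called, and the cause was not tested. Leaving out each mouse gave 1043 to 1327 genes called, 375 to 533 higher and 668 to 794 lower, with 3 to 5 of the 10 genes higher and 1 to 2 lower, and 3 to 4 wider genes higher and 3 lower in each case. The values ranged from -0.07 to 0.41 for Ltc4s, -0.58 to 0.46 for Pla2g4a, -0.14 to 0.34 for Pla2g7, -0.03 to 0.28 for Mgll, -0.59 to 0.10 for Cbr1 and -0.33 to 0.14 for Ptgr2. The share of Hpgds in the D synthase counts was higher by 57.8 to 66.0 percentage points. Without the replicate block, which treats paired samples as unrelated, 1498 genes were called (581 higher, 917 lower), with 5 of the 10 genes higher and 2 lower, and no call of the 10 or of the named wider genes changed. Depth limits Alox5, Ptgs2 and Pla2g4a, with under 100 counts each. The values of the wider genes and shares under these settings were added after the data had been seen.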

Other observations

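Some wider pathway genes below the minimum count were seen in 1 group only; they are named after their values were seen, and none was tested. Akr1b3, an aldose reductase with prostaglandin F synthase activity, had 10 counts in RFPpos and 0 in RFPneg libraries, at least 3.89-fold higher against the 3 counts that a count of 0 allows. Fpr2, a receptor for lipoxin and formyl peptides on myeloid cells, had 14 counts in RFPneg and 0 in RFPpos libraries, at least 4.00-fold lower. Both bounds allow no error on the counts of the other group. The thromboxane receptor gene Tbxa2r had 6 counts and the leukotriene-forming genes Dpep2 and Mgst2 had 7 counts each, all in RFPneg libraries.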
